A study of Mus musculus with 28 samples.

Results

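Pou5f1, Sox2 and Nanog encode the transcription factors OCT4, SOX2 and NANOG, the core of the network that holds mouse embryonic stem cells in the pluripotent state. They were taken by gene symbol and are 3 of the 53564 symbols in the deposited expression table. In the mm10 annotation Pou5f1 (ENSMUSG00000024406) lies at chr17:35506018-35510772, Sox2 (ENSMUSG00000074637) at chr3:34650405-34652461 and Nanog (ENSMUSG00000012396) at chr6:122707489-122714633, all on the plus strand. The study asked what telomere shortening does to the path from embryonic stem cells to germ cells in C57BL6 mouse material, and it followed germ cell genes, somatic lineage genes, proliferation and meiosis. Wild-type embryonic stem cells (LT, long telomeres), generation 4 Terc-knockout cells (ST, short telomeres) and Terc-rescued cells (RT, rescued telomere length) were compared. Terc is the RNA template of telomerase. The labels do not say whether each line is 1 clone.

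The 8 groups described here hold 2 libraries each. RT-1dMeioLC, ST-1dMeioLC and LT-1dMeioLC are day-1 meiocyte-like cells: primordial germ cell-like cells from the 3 lines, made by 4 days of BMP4, SCF, EGF and LIF, were aggregated with gonadal somatic cells of female E12.5 Actin-GFP embryos, cultured for 1 day with 3 µM retinoic acid, FBS, vitamin C and Y27632, and sorted as GFP-negative. PGC-1dMeioLC went through the same culture and sort but started from primordial germ cells (PGCs) of E10.5 embryos. E10.5PGC are those germ cells, sorted from embryonic gonads by integrin beta 3 and SSEA1. RT-1dEB, ST-1dEB and LT-1dEB are day-1 embryoid bodies, taken after 1 day of germ cell induction of epiblast-like cells that had been made in 2 days with KSR, bFGF and activin A. No label gives the 2 libraries of a group as separate cultures or animals, so p-values measure only the spread between these libraries, which may be technical. With 2 libraries per group, libraries of 2 groups can stand apart without a difference. The share of all genes that do so was not counted.

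OCT4 is a POU-domain factor and SOX2 an HMG-box factor, and the pair binds DNA side by side on a composite motif. NANOG is a homeodomain protein that joins them at many of the same enhancers, and the 3 factors bind their own genes and each other's. Mouse primordial germ cells express all 3 factors, with Pou5f1 kept on from the epiblast and Sox2 and Nanog regained, and the genes are turned down when female germ cells enter meiosis. NANOG also promotes germ cell fate in epiblast-like cells in culture.

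The promoter windows of the 3 genes are shown because the factors act partly through such sites. Each window holds the 250 bases before and the first 50 bases from the RefSeq transcription start (GRCm38.p6, plus strand), and capitals mark every match to a searched motif. Those motifs were the SOX motif CATTGT, the POU motif ATGCAAA, the OCT4-SOX2 composite (CATTGT, any 1 base, then ATGCAAA, which so contains both) and AGGTCA, the core recognised by nuclear receptors, each on both strands. The windows are chr17:35505782-35506081 for Pou5f1, chr3:34649745-34650044 for Sox2 and chr6:122707239-122707538 for Nanog.
Pou5f1: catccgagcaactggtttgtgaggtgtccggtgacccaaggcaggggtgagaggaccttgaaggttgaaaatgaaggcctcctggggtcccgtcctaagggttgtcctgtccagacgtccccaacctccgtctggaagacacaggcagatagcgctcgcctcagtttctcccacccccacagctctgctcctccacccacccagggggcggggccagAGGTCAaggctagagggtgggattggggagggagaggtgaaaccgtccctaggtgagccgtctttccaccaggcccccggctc
Sox2: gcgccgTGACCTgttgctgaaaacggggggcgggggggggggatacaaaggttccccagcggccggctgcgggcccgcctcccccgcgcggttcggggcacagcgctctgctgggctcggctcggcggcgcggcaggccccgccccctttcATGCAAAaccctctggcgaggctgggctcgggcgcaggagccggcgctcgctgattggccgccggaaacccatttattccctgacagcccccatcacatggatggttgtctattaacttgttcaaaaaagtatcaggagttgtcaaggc
Nanog: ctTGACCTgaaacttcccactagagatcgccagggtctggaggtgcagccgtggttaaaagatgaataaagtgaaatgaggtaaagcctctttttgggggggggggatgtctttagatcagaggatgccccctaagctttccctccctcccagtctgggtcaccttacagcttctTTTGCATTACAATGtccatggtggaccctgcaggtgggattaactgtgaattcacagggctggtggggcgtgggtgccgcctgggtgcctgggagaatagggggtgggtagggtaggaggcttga

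The Nanog window held the composite on the minus strand, read here as TTTGCATTACAATG, 75 to 62 bases before the start. It is the documented OCT4-SOX2 element of the mouse Nanog promoter. Only 2 of 32851 promoter windows of this length held that motif (0.00609%), while its POU part was in 4.63% and its SOX part in 12.6% of windows. The Nanog window shown is among those with the motif. Nanog has 2 windows in the set, and the gene of the other match is not given here. The Sox2 window held the POU part 99 to 93 bases before the start. The nuclear receptor core, present in 16.3% of windows, lay 33 to 28 bases before the start in Pou5f1, 244 to 239 bases before it in Sox2 and 248 to 243 bases before it in Nanog, on the minus strand in Sox2 and Nanog. These matches describe the letters of the windows, and binding was not measured.

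Levels are given as scaled TPM. TPM (transcripts per 1000000, a level per length) was rescaled in each library so that nuclear protein-coding genes add up to 1000000, because they held 27.2% to 61.3% of the deposited TPM. They held 27.2% and 29.2% in RT-1dEB, where mitochondrial rRNA took 13.1% and 12.4%. Deposited values multiplied by exon length fell on whole steps, here taken as 1 read each, which gives about 3974030 to 34484900 reads per library. Terc was listed at 0 in all 4 ST libraries, at 0 in both PGC-1dMeioLC libraries and at 1.15 to 12.3 scaled TPM in the 10 others. Although sorted as GFP-negative, all 1dMeioLC groups carried gonadal somatic markers: the 8 genes (among them Wt1, Foxl2 and Wnt4) summed to 222 to 392 scaled TPM there, against 33.0 to 34.4 in E10.5PGC and 41.7 to 83.3 in 1dEB. The summed PGC markers reached 5626 and 5646 scaled TPM in E10.5PGC, led by Dppa3 with a mean of 4916.

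Pou5f1 was an abundant transcript in embryoid bodies and a scarce one in meiocyte-like cells. Its level was 4.20 and 6.04 scaled TPM in RT-1dMeioLC, 8.96 and 12.4 in ST-1dMeioLC, 3.51 and 2.38 in LT-1dMeioLC, and 4.32 and 5.44 in PGC-1dMeioLC. It was 14.2 and 14.0 in E10.5PGC, 347 and 380.3 in RT-1dEB, 261 and 258 in ST-1dEB, and 318 and 350.5 in LT-1dEB. The highest group mean, in RT-1dEB, was 123 times the lowest, in LT-1dMeioLC. Libraries of RT-1dEB and LT-1dEB overlapped, as did those of RT-1dMeioLC and PGC-1dMeioLC, and no other neighbours in the order did. These low values rest on few reads: 22 and 28 in RT-1dMeioLC, 26 and 54 in ST-1dMeioLC, 96 and 10 in LT-1dMeioLC, and 23 and 29 in PGC-1dMeioLC. The 95% exact Poisson interval of the 10 reads is 4.80 to 18.4 reads, which covers counting error only. Embryoid body libraries held 1040 to 4484 Pou5f1 reads.

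Sox2 followed the same split over a narrower range. Its level was 33.2 and 29.3 scaled TPM in RT-1dMeioLC, 31.6 and 36.3 in ST-1dMeioLC, 23.5 and 25.3 in LT-1dMeioLC, and 34.1 and 28.3 in PGC-1dMeioLC. It was 70.7 and 70.4 in E10.5PGC, 241 and 244 in RT-1dEB, 167 and 170.5 in ST-1dEB, and 222 and 221 in LT-1dEB. RT-1dEB was highest and LT-1dMeioLC lowest, a ratio of 9.94 between their means. Libraries of ST-1dMeioLC, RT-1dMeioLC and PGC-1dMeioLC overlapped, and the other 5 groups stood apart from their neighbours. Sox2 had 84 to 2858 reads per library.

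Nanog did not follow that split. Its level was 80.9 in each RT-1dMeioLC library, 135 and 126 in ST-1dMeioLC, 48.8 and 43.2 in LT-1dMeioLC, and 33.0 and 36.3 in PGC-1dMeioLC. It was 82.5 and 88.1 in E10.5PGC, 95.2 and 111 in RT-1dEB, 90.3 and 87.1 in ST-1dEB, and 193 and 187 in LT-1dEB. ST-1dMeioLC, with a mean of 131 ± 5.90 (SD, n = 2), came second after LT-1dEB with 190.3 ± 4.02 (SD, n = 2), and ahead of both other embryoid body groups. ST-1dEB and E10.5PGC overlapped, and the highest mean was 5.49 times the lowest, in PGC-1dMeioLC. Nanog had 175 to 1333 reads per library.

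**Figure D1:**
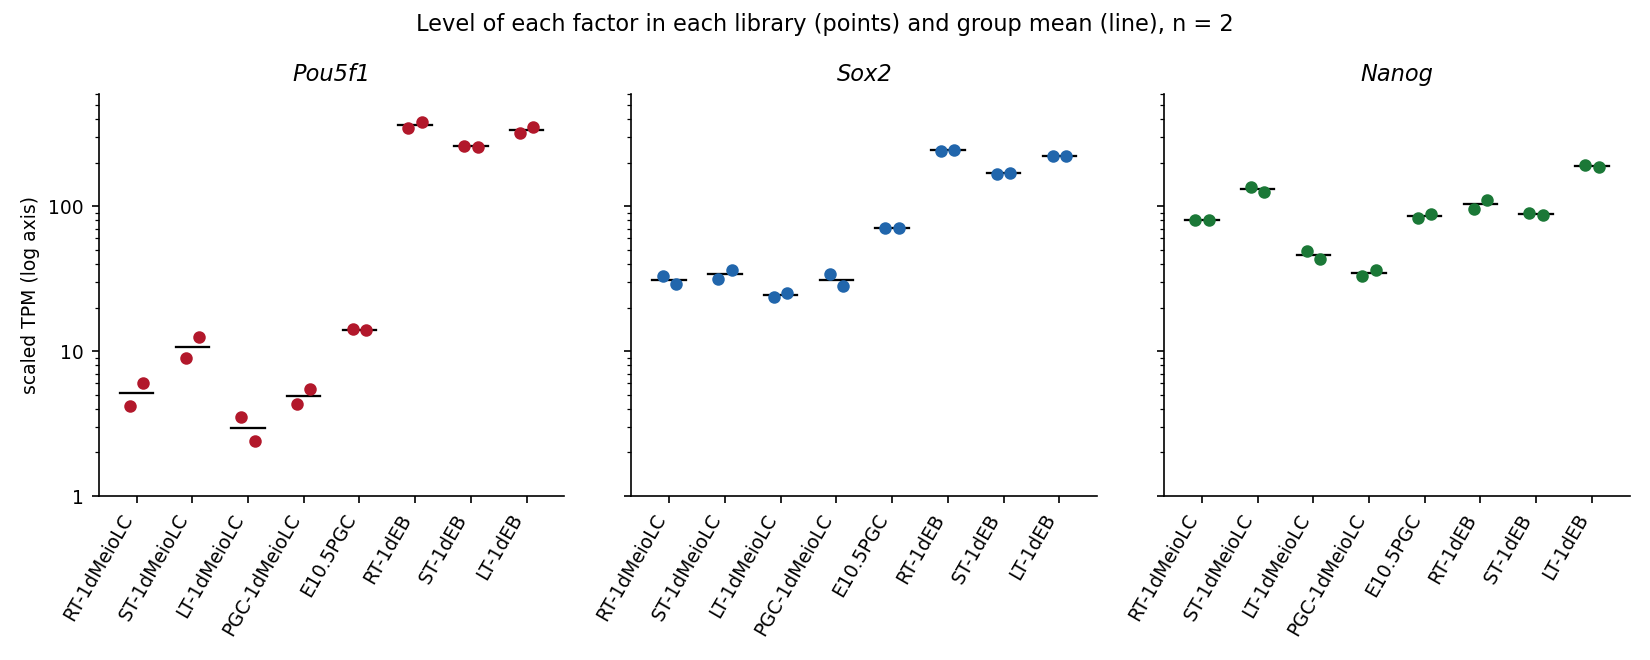
Level of Pou5f1, Sox2 and Nanog in each of the 16 libraries (points; scaled TPM, log axis) with the mean of each group of 2 (line). The 6 embryoid body libraries are highest for Pou5f1 and Sox2, while for Nanog both ST-1dMeioLC libraries (135 and 126) lie above those of RT-1dEB and ST-1dEB.

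Across the 16 libraries on the log2 scale, Pearson's r was 0.98 between Pou5f1 and Sox2, 0.65 between Nanog and Pou5f1 and 0.62 between Nanog and Sox2. These are descriptions: libraries of one stage share their culture, and the split between stages sets most of the range.

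The order of the 3 levels within a library turned over between the stages. The Nanog to Pou5f1 ratio of TPM was 10.2 to 19.3 in the 6 libraries of RT-1dMeioLC, ST-1dMeioLC and LT-1dMeioLC, against 0.275 to 0.607 in the 6 embryoid body libraries. It was 7.63 and 6.67 in PGC-1dMeioLC and 5.83 and 6.27 in E10.5PGC. Per length, Nanog was thus above Pou5f1 in each meiocyte-like and germ cell library and below it in each embryoid body library. Among embryoid bodies the Nanog to Pou5f1 ratio was 0.275 and 0.291 in RT, 0.345 and 0.338 in ST, and 0.607 and 0.535 in LT, with no overlap between lines. The Sox2 to Pou5f1 ratio was 2.91 to 10.6 in all meiocyte-like and germ cell libraries and lay between 0.629 and 0.699 in all embryoid bodies, where the lines overlapped. Nanog exceeded Sox2 by 1.71 to 4.26 times in meiocyte-like cells of the 3 lines, against 0.967 and 1.28 in PGC-1dMeioLC. A ratio within a library does not depend on the scaling of that library. Ratios to Pou5f1 do depend on how reads shared with the overlapping antisense gene Gm19553, described below, were divided.

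**Figure D2:**
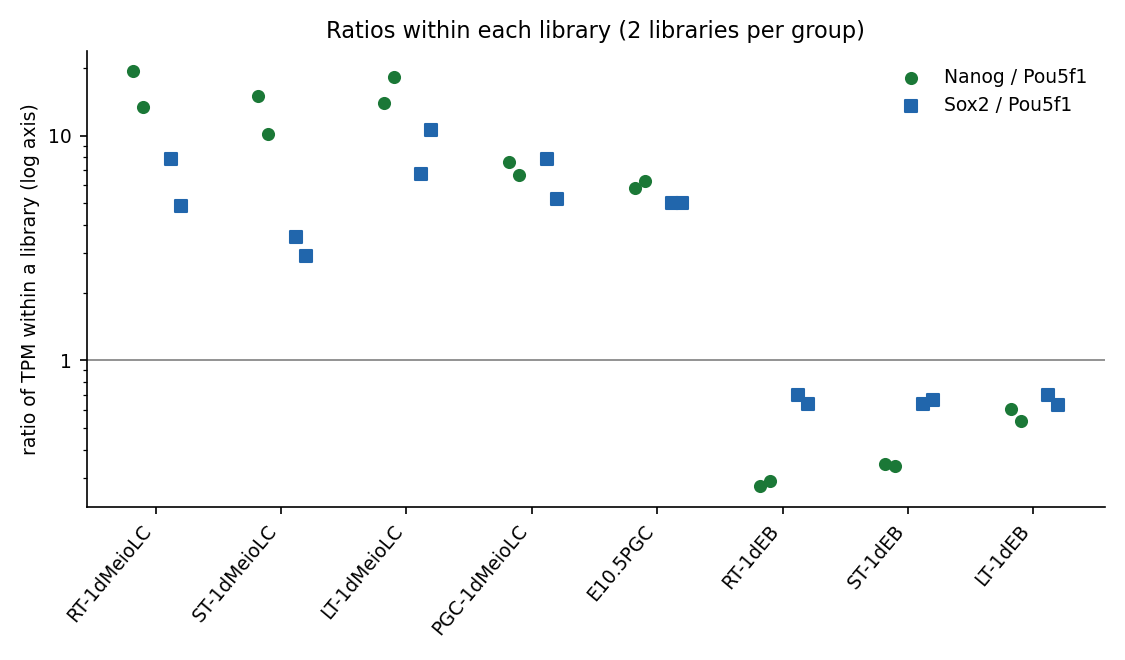
Ratio of Nanog to Pou5f1 and of Sox2 to Pou5f1 TPM within each library (log axis), 2 libraries per group, with a line at 1. Embryoid bodies lie below 1 (0.275 to 0.699) and all other libraries above it (2.91 to 19.3). Pou5f1 values carry the limit set by the overlapping antisense gene Gm19553, given in the text.

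Among 21805 nuclear protein-coding genes, Pou5f1 ranked 352 to 576 in embryoid bodies, 5086 and 5088 in E10.5PGC and 6719 to 11765 in the 1dMeioLC groups. Sox2 ranked 545 to 878, then 1754 and 1784, then 3123 to 4230 in the same groups. Nanog ranked 1129 and 1185 in ST-1dMeioLC and 749 and 781 in LT-1dEB, and 3222 and 3452 in PGC-1dMeioLC.

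Between day-1 embryoid bodies and day-1 meiocyte-like cells, Pou5f1 and Sox2 fell in all 3 lines, while Nanog fell in LT and rose in ST. The test was limma on log2(scaled TPM + 1) over 26806 genes with Benjamini-Hochberg adjustment at 0.05, so the change of low genes is understated. One spread is shared by all groups, which gives a standard error of 0.19 for Pou5f1, 0.09 for Sox2 and 0.08 for Nanog in each comparison of 2 groups. Pou5f1 replicates lay further apart in each 1dMeioLC group than in E10.5PGC or any 1dEB group. On the log2 scale they were 3.32 and 3.75 in ST-1dMeioLC and 2.17 and 1.76 in LT-1dMeioLC. They were 8.04 and 8.01 in ST-1dEB and 8.32 and 8.46 in LT-1dEB. The shared Pou5f1 error may thus be too small among 1dMeioLC groups and too large among 1dEB groups. The background of calls was high: 64.8% of genes passed in RT (45.0% lower), 55.8% in ST (34.0% lower) and 57.2% in LT (33.5% lower).

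Pou5f1 fell in 1dMeioLC against 1dEB, with a log2 difference of −5.91 in RT, −4.49 in ST and −6.42 in LT (adjusted p 1.5e-09, 1.3e-08 and 8.1e-10). Only 0.104%, 0.694% and 0.0448% of the genes tested fell further in RT, ST and LT. Sox2 fell as well, with −2.92 in RT, −2.28 in ST and −3.13 in LT (adjusted p 1.5e-09, 1.0e-08 and 8.9e-10), with 4.47%, 6.14% and 2.39% of genes falling further. Both genes were lower in every 1dMeioLC library than in every 1dEB library.

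Nanog differed by line. It rose by 0.55 in ST-1dMeioLC over ST-1dEB (fold 1.47 on the log2(scaled TPM + 1) scale, as all folds below, adjusted p 0.000214) and fell in LT-1dMeioLC against LT-1dEB (−2.03, adjusted p 9.5e-09), with no overlap in either. In RT the log2 difference was −0.34 (adjusted p 0.00434), and that direction rests on the scaling: it was 0.75 (adjusted p 4.9e-05) on deposited TPM and −0.01 (adjusted p 0.89) with voom on the recovered reads. The median of all genes in that comparison was −0.52 on scaled and 0.30 on deposited TPM. In each line the gonadal somatic markers summed higher in 1dMeioLC than in 1dEB (222 to 392 against 41.7 to 83.3 scaled TPM over the 3 lines). Stroma markers were higher for 6 of 8 in RT, 3 in ST and 7 in LT and lower for 1, 4 and 1. Of 6 neural markers 5 were lower in each line, with 1 higher in LT. PGC marker sums (1dMeioLC against 1dEB) were 682 and 725 against 235.6 and 236.6 in RT. They were 159.5 and 160.4 against 189 and 197 in ST, and 967 and 1013 against 199.9 and 224 in LT. By gene, 3 of the 8 PGC markers were higher and 4 lower in RT, 2 and 4 in ST, and 4 and 3 in LT. Their median log2 differences were −0.55, −0.60 and 0.29. Dppa3 averaged 549 against 74.4 in RT and 838 against 124 in LT. Itgb3 (3.51 against 23.0) and Tfap2c (9.88 against 49.9) were lower in RT. The part of these markers in the changes was not tested. In bulk libraries, fewer cells that express a gene and less of its RNA per cell cannot be told apart.

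Among meiocyte-like cells, all 3 factors were higher in ST than in LT. The log2 difference of ST-1dMeioLC over LT-1dMeioLC was 1.57 for Pou5f1 (fold 2.96, adjusted p 0.000214), 0.46 for Sox2 (fold 1.37, adjusted p 0.00439) and 1.49 for Nanog (fold 2.80, adjusted p 2.1e-06). Of all genes tested, 28.8% passed in this comparison and 16.9% were higher. No ST library overlapped an LT library for any of the 3, a separation whose share over all genes was not counted. With only these 4 libraries in the fit, the adjusted p was 0.072 for Pou5f1 and 0.088 for Sox2. Beside these values, the summed gonadal somatic markers were 378 to 392 in ST and 258 to 265 in LT (3 of 8 higher, 1 lower), the summed stroma markers 604 to 609 and 473 to 488 (3 higher and 3 lower of 8; Thy1 was at 0 in ST), and the macrophage and endothelial sum 45.2 to 54.2 and 100.1 to 103. The summed PGC markers were 159.5 and 160.4 in ST and 967 and 1013 in LT, with 3 of 8 lower, led by Dppa3 (50.4 against 838). The part of these cell markers in the differences was not tested.

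In the Terc-rescued line, Pou5f1 and Nanog were lower than in ST. The log2 difference of RT-1dMeioLC from ST-1dMeioLC was −0.94 for Pou5f1 (adjusted p 0.00422), −0.12 for Sox2 (95% interval −0.32 to 0.09, adjusted p 0.40) and −0.68 for Nanog (adjusted p 0.000261). The background was 29.0% of genes called and 20.1% lower. The Pou5f1 call was lost with voom on the recovered reads (−0.99, adjusted p 0.081) and with only the groups compared (adjusted p 0.16). Sox2 libraries of RT and ST overlapped. Beside these values, the summed gonadal somatic markers were 222 to 223 in RT and 378 to 392 in ST (1 of 8 higher, 5 lower), the stroma sum 463 in each RT library and 604 to 609 in ST (3 higher and 4 lower of 8), and the macrophage and endothelial sum 99.0 to 107 and 45.2 to 54.2 (3 of 8 higher; Cdh5 was at 0 in ST). The summed PGC markers were 682 and 725 in RT and 159.5 and 160.4 in ST, with 4 of 8 higher and 1 lower, led by Dppa3 (549 against 50.4). Their part in the differences was not tested.

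Against LT, the RT cells stood higher for Nanog. RT-1dMeioLC minus LT-1dMeioLC was 0.80 for Nanog (fold 1.75, adjusted p 0.000261; 0.060 with only the groups compared), 0.63 for Pou5f1 (95% interval 0.22 to 1.05, adjusted p 0.0509) and 0.34 for Sox2 (adjusted p 0.0371). Here 13.4% of genes passed and 4.76% were higher. The Sox2 call was lost without RT replicate 1, LT replicate 1 or LT replicate 2 (adjusted p 0.20, 0.18 and 0.097). For all 3 genes the RT mean lay between the ST and the LT mean.

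In embryoid bodies the direction was the other way for Nanog. ST-1dEB minus LT-1dEB was −1.09 for Nanog (88.7 ± 2.26 against 190.3 ± 4.02 scaled TPM, SD, n = 2 each; adjusted p 3.4e-06) and −0.39 for Sox2 (169 ± 2.79 against 221 ± 1.23; adjusted p 0.00732). For Pou5f1 it was −0.36 (95% interval −0.78 to 0.05, adjusted p 0.170), and with voom −0.39 (adjusted p 2.0e-05). The background was 35.2% of genes called and 16.1% lower. On deposited TPM the Sox2 difference was −0.20 (adjusted p 0.13). All 8 stroma markers were higher in ST-1dEB, summing to 658 and 677 against 43.1 and 44.5 scaled TPM in LT-1dEB. Of 6 neural markers 4 were lower and 1 higher in ST-1dEB. The part of these markers in these differences was not tested.

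Nanog also stayed below LT in RT embryoid bodies. RT-1dEB minus LT-1dEB was −0.88 for Nanog (adjusted p 2.3e-05), 0.12 for Pou5f1 (95% interval −0.30 to 0.54, adjusted p 0.669) and 0.13 for Sox2 (95% interval −0.08 to 0.34, adjusted p 0.302), where 37.5% of genes passed. RT-1dEB minus ST-1dEB was 0.52 for Sox2 (adjusted p 0.00154), 0.48 for Pou5f1 (95% interval 0.07 to 0.90, adjusted p 0.0700) and 0.21 for Nanog (95% interval 0.02 to 0.39, adjusted p 0.0774), where 35.5% passed. The values over ST-1dEB turned round on deposited TPM, to −0.13 for Sox2, −0.17 for Pou5f1 and −0.43 for Nanog (adjusted p 0.31, 0.48 and 0.0037). Those over LT-1dEB turned to −0.33 for Sox2 and −0.34 for Pou5f1, while Nanog stayed lower. The 2 RT-1dEB libraries are those with the low protein-coding share. Stroma markers summed to 289 and 311 in RT-1dEB, with all 8 higher than in LT-1dEB.

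The difference between lines itself changed between the stages. The ST minus LT difference was larger at 1dMeioLC than at 1dEB by 2.58 for Nanog (SE 0.12, adjusted p 2.7e-07), 1.93 for Pou5f1 (SE 0.26, adjusted p 0.000353) and 0.85 for Sox2 (SE 0.13, adjusted p 0.000742), a test that 32.6% of all genes passed, 16.1% upward. The RT minus ST difference moved by −0.89 for Nanog, −1.42 for Pou5f1 and −0.64 for Sox2 (adjusted p 0.000356, 0.00260 and 0.00429), with 33.2% of all genes passing, 22.2% downward. On deposited TPM the RT values were −0.15 for Nanog, −0.61 for Pou5f1 and 0.11 for Sox2, and none passed (adjusted p 0.42, 0.072 and 0.55). Both tests use the same 4 ST libraries. Cell markers moved with both: in the ST minus LT change all 8 stroma markers moved down (median −3.36), as did 6 of 8 PGC markers (median −1.31, none up), 4 of 8 gonadal somatic markers (1 up) and 3 of 8 macrophage and endothelial markers (none up). In the RT minus ST change 5 stroma markers moved up and none down, 2 PGC markers up and 1 down, 2 gonadal somatic markers up and 3 down, and 3 macrophage and endothelial markers up and none down. Their part in these changes was not tested.

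**Figure D3:**
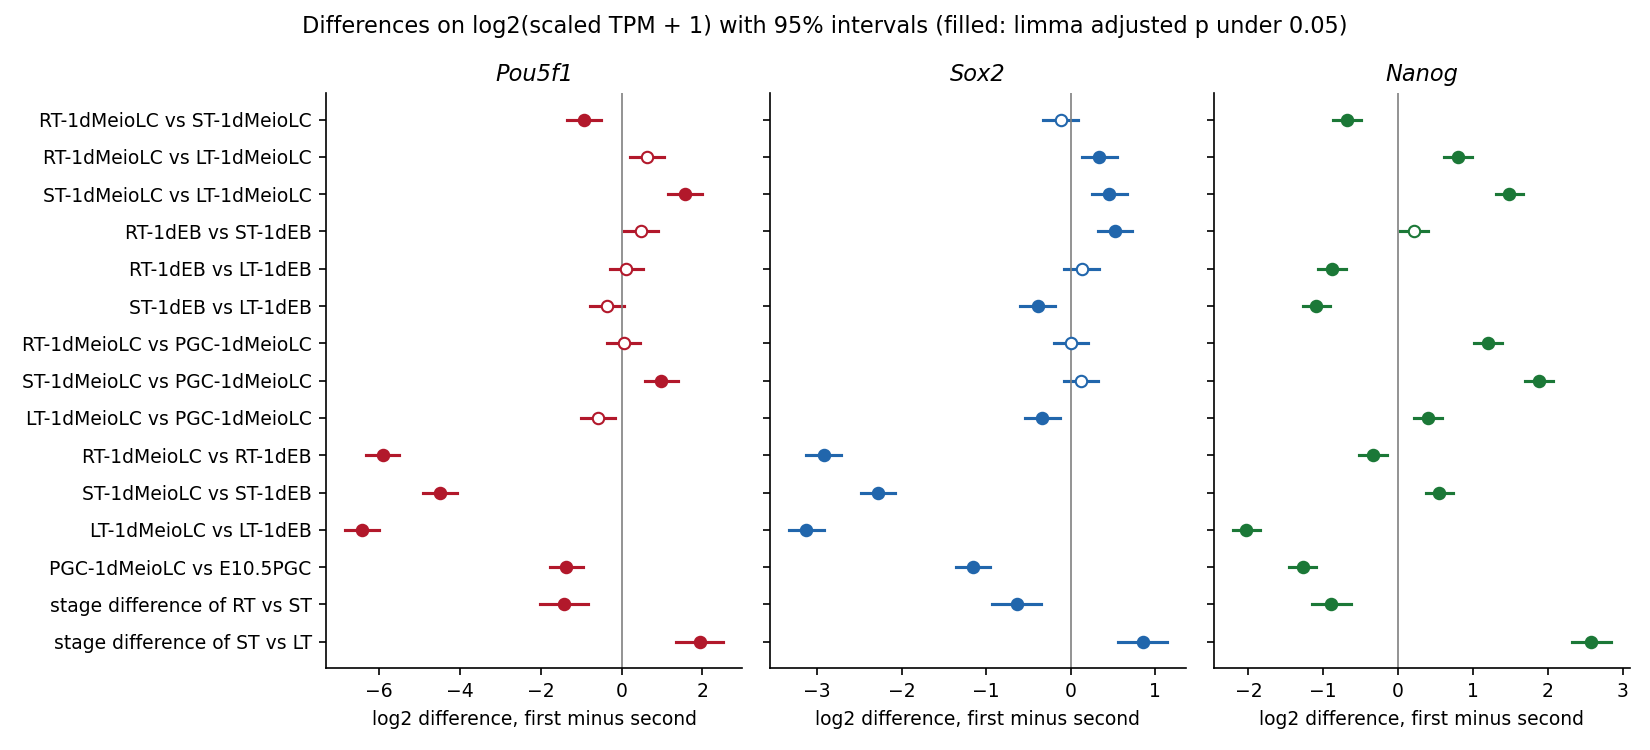
Log2 difference of each factor in the 13 comparisons of 2 groups and the 2 differences between stages (first minus second; bars are 95% intervals; filled points have a limma adjusted p under 0.05). In the 3 comparisons of 1dMeioLC with 1dEB, Pou5f1 lies between −4.49 and −6.42 and Sox2 between −2.28 and −3.13, while Nanog lies at −2.03 in LT and 0.55 in ST.

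Culture of E10.5 germ cells for 1 day with gonadal somatic cells and retinoic acid went with lower levels of all 3 factors. PGC-1dMeioLC minus E10.5PGC was −1.37 for Pou5f1 (4.88 ± 0.789 against 14.1 ± 0.0766 scaled TPM, SD, n = 2 each; adjusted p 0.000138), −1.16 for Sox2 (31.2 ± 4.11 against 70.5 ± 0.202; adjusted p 2.5e-06) and −1.28 for Nanog (34.6 ± 2.34 against 85.3 ± 3.94; adjusted p 5.6e-07). The added 1 understates the Pou5f1 value most, since its levels are the lowest of the 3. Of all genes 46.0% passed and 12.6% were lower. All 8 gonadal somatic and all 8 stroma markers were higher in PGC-1dMeioLC, summing to 290.1 to 295 and 613 to 649.9 scaled TPM against 33.0 to 34.4 and 12.4 to 12.6 in E10.5PGC, where Foxl2 was at 0. The summed PGC markers were 949 and 957 in PGC-1dMeioLC. The part of admixed somatic RNA in these falls was not tested.

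Set against meiocyte-like cells made from embryonic germ cells, those from all 3 stem cell lines had more Nanog. The log2 difference from PGC-1dMeioLC was 1.20 in RT, 1.89 in ST and 0.40 in LT (adjusted p 5.2e-06, 2.0e-07 and 0.00883). No library overlapped, but how many of all genes separate in this way was not counted. Calls made up 28.7% of genes in RT, 34.9% in ST and 18.8% in LT, with 17.3% higher in ST. Pou5f1 was higher in ST (0.98, adjusted p 0.00246, but 0.10 with only the groups compared), with 0.05 in RT and −0.58 in LT (adjusted p 0.98 and 0.0546). Sox2 was 0.00 in RT (95% interval −0.20 to 0.21), 0.12 in ST (95% interval −0.08 to 0.33) and −0.34 in LT (adjusted p 1, 0.37 and 0.0302). The LT call for Sox2 was lost without LT replicate 1, LT replicate 2 or PGC-1dMeioLC replicate 1 (adjusted p 0.15, 0.080 and 0.20). The LT call for Nanog was lost without LT replicate 1 or PGC-1dMeioLC replicate 1 (adjusted p 0.067 and 0.069). These 3 comparisons share their PGC-1dMeioLC libraries. The macrophage and endothelial markers were lower than in PGC-1dMeioLC for 6 of 8 in RT (1 higher), 7 in ST and 5 in LT, with sums of 99.0 to 107, 45.2 to 54.2 and 100.1 to 103, against 200.5 to 207 in PGC-1dMeioLC. PGC markers were lower for 6 of 8 in RT, 4 in ST and 2 in LT and higher for none, with sums of 682 to 725, 159.5 to 160.4 and 967 to 1013, against 949 to 957. Gonadal somatic markers were lower for 5 of 8 in RT, 2 in ST and 0 in LT and higher for 1, 3 and 1, and stroma markers were lower for 3, 3 and 2 and higher for 0, 2 and 0. Their part in the Nanog differences was not tested.

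Pou5f1 values carry a further limit. The antisense gene Gm19553 (chr17:35509077-35510551, minus strand) overlaps it, and 317 exon bases are shared, 14.1% of the Pou5f1 exons and 64.2% of those of Gm19553. Gm19553 ran from 10.8 to 1456 scaled TPM and had 0.731 to 1 times as many reads as Pou5f1, with equal numbers in 2 libraries and more in none. Its reads were 22 and 27 in RT-1dMeioLC, 19 and 51 in ST-1dMeioLC, 92 and 10 in LT-1dMeioLC, 3776 and 1135 in RT-1dEB, 1144 and 885 in ST-1dEB, and 1158 and 1408 in LT-1dEB. On the log2 scale it followed Pou5f1 with r = 0.9995 over 16 libraries. No source used here says whether counting used strand. Without strand, reads that lie within the shared bases cannot be told apart.

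With Gm19553 and Pou5f1 taken as 1 unit over their joined exons, none of the 15 Pou5f1 comparisons changed its direction or its call. That unit is a weighted sum of both genes, which followed each other with r = 0.9995, so little change was possible. It cannot tell how reads of the pair were divided. The ratio of Nanog to that unit was 5.63 to 10.4 in 1dMeioLC of the 3 lines and 0.161 to 0.361 in 1dEB. Sox2 lies within an intron of Sox2ot on the same strand, with 0 shared exon bases, and Sox2ot stayed between 0.0447 and 2.89 scaled TPM. Of 7 Pou5f1 pseudogenes sought, 5 were in the table, with up to 5.94 scaled TPM (Gm21054 in RT-1dEB replicate 1). Gm6539 reached 4.03 in LT-1dMeioLC replicate 2, above the 2.38 of Pou5f1 there, so low Pou5f1 values are uncertain as far as reads of such copies were split. Nanog-ps1 and Nanog-ps2 were at 0 in all 16 libraries.

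**Figure D4:**
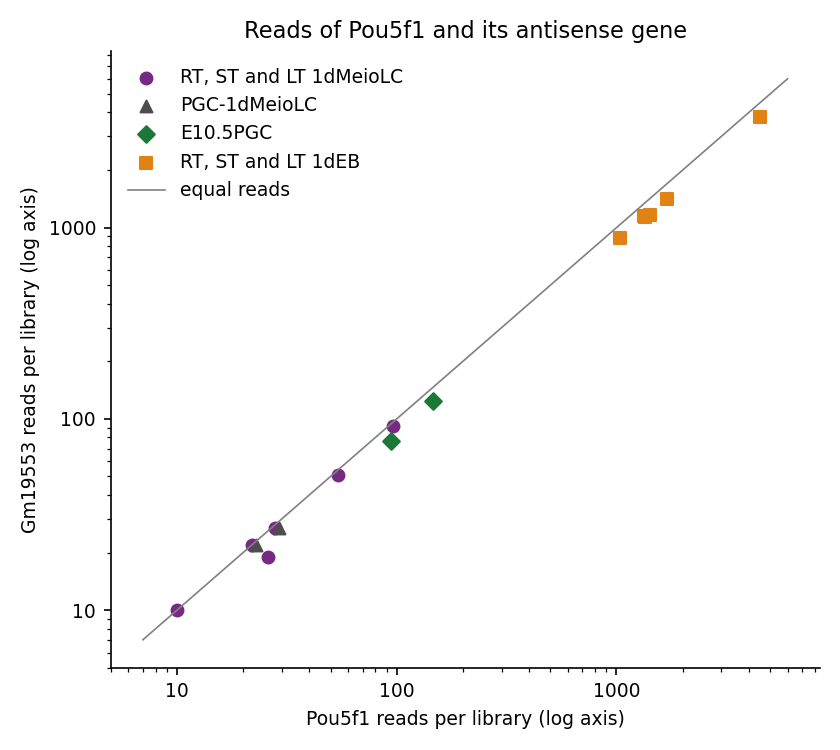
Reads of Gm19553 against reads of Pou5f1 in each of the 16 libraries (log axes), recovered from deposited TPM and exon length, with a line of equal reads. Points run from 10 reads each in LT-1dMeioLC replicate 2 to 4484 Pou5f1 and 3776 Gm19553 reads in RT-1dEB replicate 1, and none lies above the line.

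Of 16 genes listed as targets bound by the 3 factors in embryonic stem cells, all were tested. In ST-1dMeioLC against LT-1dMeioLC 11 were higher and 2 lower (median log2 difference 0.55, all genes 0), and 7 to 12 were higher over the alternatives. Beside these counts, 28.8% of all genes passed and 16.9% were higher. Tdgf1, a Nodal co-receptor, averaged 54.9 against 4.49 scaled TPM (log2 difference 3.35). Lefty1, a Nodal antagonist, averaged 43.5 against 7.01 (2.51), and Fgf4, the growth factor whose enhancer carries the classical composite motif, 22.1 against 3.77 (2.28).

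In ST-1dEB against LT-1dEB the same list had 2 higher and 11 lower (median −0.40, all genes 0), and 6 to 11 were lower over the alternatives. Beside these counts, 35.2% of all genes passed and 16.1% were lower. The WNT pathway repressor Tcf7l1 averaged 37.2 against 90.6 (−1.26) and the TGF-beta family ligand Gdf3 103 against 206. Spp1, which encodes the secreted protein osteopontin, went the other way, with 9875 against 1056 (3.22). In RT-1dMeioLC against ST-1dMeioLC 3 were higher and 7 lower (median −0.25, all genes −0.03), and 2 to 7 were lower over the alternatives. Of all genes, 29.0% passed there and 20.1% were lower. Tdgf1 stood at −2.61 and Fgf4 at −1.22, while Dppa4 was 0.84 higher (adjusted p 0.060 with only the groups compared). Against LT-1dMeioLC, 8 targets were higher and 2 lower in RT-1dMeioLC (median 0.45, all genes −0.03). With deposited TPM or quantile normalization 9 were higher. Of all genes, 13.4% passed in that comparison and 4.76% were higher.

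**Figure D5:**
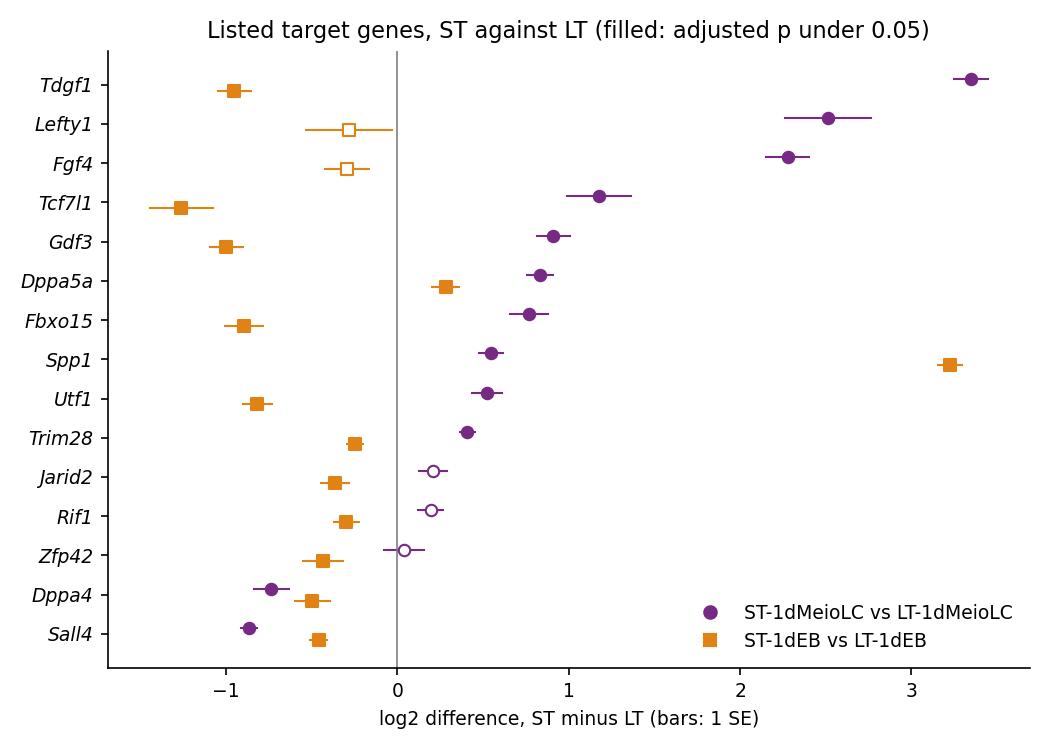
Log2 difference of ST from LT for 15 of the 16 listed target genes (1 is counted in the text and not drawn) in 1dMeioLC (circles) and 1dEB (squares), with bars of 1 SE and filled points for a limma adjusted p under 0.05. Of the genes drawn, 10 passed the test as higher in 1dMeioLC and 11 as lower in 1dEB, with Spp1 the highest square at 3.22. Over all genes tested, 16.9% were higher in 1dMeioLC and 16.1% lower in 1dEB.

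Between stages the targets mostly fell: 14 of 16 in RT, 13 in ST and 14 in LT were lower in 1dMeioLC (medians −1.76, −1.20 and −1.63, all genes −0.52, −0.20 and −0.14). Beside these counts, 45.0%, 34.0% and 33.5% of all genes were lower. Over the alternatives 10 to 14 were lower in RT, 11 to 13 in ST and 12 to 14 in LT. The log2 difference was −5.24 in RT, −2.81 in ST and −7.12 in LT for Tdgf1, and −4.21, −3.50 and −4.84 for Utf1, a chromatin protein of pluripotent cells. The ST minus LT difference of the targets moved up between stages for 11 and down for 2 (median 0.62, all genes 0), with Tdgf1 at 4.30. Of all genes, 32.6% passed that test and 16.1% moved up. In PGC-1dMeioLC against E10.5PGC 2 were higher and 11 lower (median −1.36, all genes 0.18; 46.0% of all genes passed and 12.6% were lower). Among the lower ones were Lefty1 (0.960 against 34.0), Utf1 (123 against 825) and Dppa4 (105 against 516). The list was drawn up with earlier results of these data known, so its direction is no independent evidence.

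A list of 30 partners and co-regulators of the factors shares members with the targets, among them Sall4 and Zfp42. In ST-1dMeioLC against LT-1dMeioLC 16 were higher and 4 lower (median 0.36, all genes 0; 28.8% of all genes passed and 16.9% were higher), with the naive pluripotency regulators Tbx3 (11.8 against 3.37) and Tfcp2l1 (19.3 against 9.25) and the Mediator subunit Med12 (10.7 against 4.18) foremost. In RT-1dMeioLC against ST-1dMeioLC 1 was higher and 19 lower (median −0.42, all genes −0.03; 8 to 19 lower over the alternatives; 20.1% of all genes were lower), led by Esrrb (5.51 against 15.7), Prdm14 (6.32 against 16.4) and Tbx3 (4.57 against 11.8). Prdm14 is needed for both pluripotency and germ cell specification. Against LT-1dMeioLC, 2 partners were higher and 9 lower in RT-1dMeioLC (median −0.18, all genes −0.03). With deposited TPM or quantile normalization 3 to 9 were lower. Of all genes, 13.4% passed in that comparison. Of the 30, 27 in RT, 20 in ST and 25 in LT were lower in 1dMeioLC than in 1dEB, with 17, 19 and 19 lower and 9, 9 and 6 higher on deposited TPM. Their medians were −1.42, −0.89 and −1.20 (all genes −0.52, −0.20 and −0.14), and 45.0%, 34.0% and 33.5% of all genes were lower. The methylcytosine oxidase Tet1 (5.17 against 66.7 in LT) and the reprogramming factor Klf4 (4.53 against 57.1 in LT) were among them.

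In embryoid bodies 4 partners were higher and 11 lower in ST than in LT, but 6 were higher and 4 lower on deposited TPM, so the balance of this list turns with the scaling. Its median was −0.18 (all genes 0), beside 35.2% of all genes called and 16.1% lower. Without ST-1dEB replicate 1 or LT-1dEB replicate 1, 2 were higher. Tbx3 (24.0 against 8.43) was higher and Zic2 (2.33 against 7.65) lower, a call lost with a pseudocount of 0.1 (−1.67, adjusted p 0.26). In PGC-1dMeioLC against E10.5PGC 7 were higher and 17 lower (median −0.34, all genes 0.18; 46.0% of all genes passed and 12.6% were lower), with Zfp42 (45.9 against 184) and Esrrb (9.11 against 38.5) lower and Tbx3 (4.33 against 0.257) higher.

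Of 14 repressors and antagonists of the 3 genes, 7 were higher and 3 lower in ST-1dMeioLC than in LT-1dMeioLC (median 0.41, all genes 0; 28.8% of all genes passed). Tcf7l1 (24.7 against 10.2) and the p53 gene Trp53 (111 against 55.6) were higher, and the orphan nuclear receptor Nr2f1 (3.48 against 7.03) was lower. With only the groups compared the calls of Tcf7l1 and Nr2f1 were lost (adjusted p 0.093 and 0.11), and that of Nr2f1 also without ST replicate 1 or LT replicate 1 (adjusted p 0.082 and 0.067). In LT-1dMeioLC against LT-1dEB 4 were higher and 9 lower (median −0.68, all genes −0.14; 57.2% of all genes passed and 33.5% were lower). The higher ones were led by the nuclear receptor Nr2f2 (199 against 1.35) and the endoderm factor Gata6 (49.6 against 1.12), and the methyltransferase Dnmt3b (9.97 against 429) was lower. Nr2f2 and Gata6 were higher in PGC-1dMeioLC than in E10.5PGC as well (291 against 10.1 and 72.9 against 2.54), beside the gonadal somatic marker sums given above, and the part of those cells was not tested. Gata4 is counted both in the repressor list and in the gonadal somatic markers, and Tcf7l1 both in the repressor list and in the targets.

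Of 18 POU and SOX paralogs, 12 in RT, 11 in ST and 12 in LT were lower in 1dMeioLC than in 1dEB, and 6, 11 and 10 were on deposited TPM. Their medians were −1.14, −1.18 and −1.04 (all genes −0.52, −0.20 and −0.14), beside 45.0%, 34.0% and 33.5% of all genes lower. Pou3f1 (OCT6), a factor of the epiblast and neural lineages, fell most in each line, to 2.42 in RT-1dMeioLC, 6.28 in ST and 2.10 in LT, against 87.3, 112 and 201 in 1dEB. In PGC-1dMeioLC 11 were higher and 1 lower than in E10.5PGC (7 and 5 with quantile normalization; median 0.71, all genes 0.18; 46.0% of all genes passed), with Sox4 higher (75.3 against 15.1) and Sox15, the SOX paralog of stem and germ cells in the mouse, lower (79.2 against 338). In ST-1dEB against LT-1dEB 4 were higher and 9 lower (median −0.49, all genes 0; 35.2% of all genes passed and 16.1% were lower), and the higher ones included Sox9 (52.4 against 7.06), Sox7 (7.67 against 0.891) and Sox17 (3.73 against 0.203), genes of endoderm and other somatic lineages. Sox17 is also counted in the PGC marker list used here, and Sox1 and Sox3 are also counted among the neural markers.

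The genes whose pattern over the 16 libraries was most like each factor were taken from 10747 genes with a mean of at least 5 scaled TPM, leaving out predicted genes named by a Gm number and RIKEN clone names. Gm19553, which overlaps Pou5f1, is thus not among them, although its r of 0.9995 was higher. For Pou5f1 these were Rangap1, Rcor2, Ints5, Rrp7a and Sf3a2 (Pearson's r 0.994 to 0.997), and for Sox2 Trmt1, Spns1, Wdr74, Bop1 and Ahcy (0.992 to 0.996). Rcor2, a corepressor of the LSD1 complex, averaged 3.08 in RT-1dMeioLC, 5.94 in ST-1dMeioLC and 2.92 in LT-1dMeioLC, against 55.5, 51.4 and 63.9 in 1dEB. The closest genes to Nanog were less alike: Pfn1, Parl, Ngdn, Fam57b and Psma7 (r 0.908 to 0.942). Ngdn averaged 111 in RT-1dMeioLC, 160.2 in ST-1dMeioLC and 80.5 in LT-1dMeioLC, 68.0 in PGC-1dMeioLC, and 176, 142 and 196 in 1dEB of RT, ST and LT. Such values rest on libraries that share a stage and were chosen as the highest of many.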

How the data were processed

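NEBNext Ultra libraries of total RNA were sequenced, per the labels' protocols. Build mm10 and the tools RSEM, HISAT2, Bowtie2, DESeq2 and R 3.4.2 appear, without roles, in the submitters' processing notes. Per gene symbol, TPM values were deposited by the authors, and no other unit was used. Column names match 1 title each for 16 libraries; 12 columns carry 6 names that occur 2 times each and were not used, and the day-4 cells were not analysed here.

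Deposited TPM was scaled so that 21805 nuclear protein-coding genes (GENCODE M21, matched by symbol; 53415 symbols annotated) sum to 1000000 per library, which adds to TPM's own dependence on total composition. Genes with at least 1 scaled TPM in at least 2 libraries (26806) were fitted as log2(scaled TPM + 1) with limma 3.58.1 in R 4.3.3 (group means, trend, 8 residual and 2.12 prior degrees of freedom, 2-sided, Benjamini-Hochberg at 0.05). Products of TPM and exon length were whole in all 16 libraries for 96.9% of 53304 symbols, a share that counts values of 0 as whole. The tolerance was 0.02 of a read, widened slightly with the value. Among values above 0 and under 50 reads, 96.1% to 97.6% per library were whole within 0.02. Reads were recovered on this basis. A step may be a read pair. Named genes were the members, the 5 most alike for each, and up to 3 called genes per list with the largest change; Foxl2, Wt1, Wnt4, Thy1 and others at set places are named as markers or for read sharing. Alternatives were deposited TPM, quantile normalization, a pseudocount of 0.1, no filter on low values, a replicate block, only the groups compared, leaving out each library and, chosen after seeing the data, voom on recovered reads and Pou5f1 joined with Gm19553. 1 gene of the target and partner lists enters their counts and is not reported here by itself. The scripts were tested on simulated data. The 3 members and the gene lists were chosen with earlier results of these data known.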

Additional observations from a re-analysis of the deposited data

Results flagged for a closer look

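The 3 factors are listed here because the difference between 2 lines was not the same in 1dMeioLC and in 1dEB, by a limma test of that difference. The ST minus LT difference was larger in 1dMeioLC by 1.93 for Pou5f1, 0.85 for Sox2 and 2.58 for Nanog. For Nanog the sign turned: ST was 1.49 above LT in 1dMeioLC and 1.09 below it in 1dEB (−1.09), on the log2 scale. The RT minus ST difference was smaller in 1dMeioLC, by −1.42 for Pou5f1, −0.64 for Sox2 and −0.89 for Nanog. The 3 RT values did not pass on deposited TPM.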

How the results depend on the processing

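Of 330 alternatives to the 45 results, 292 kept the direction and the side of the threshold, 20 lost and 10 gained the call, and 8 changed direction. The 330 include 15 that joined Pou5f1 with Gm19553, which could hardly change, as that unit follows Pou5f1 by construction. Without 1 library, 187 of 204 were kept. The cause was not tested for any of them.

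On deposited TPM the log2 values turned to −0.17, −0.13 and −0.43 (Pou5f1, Sox2, Nanog) for RT-1dEB minus ST-1dEB, to −0.34 and −0.33 (Pou5f1, Sox2) for RT-1dEB minus LT-1dEB, to 0.75 for Nanog in RT-1dMeioLC minus RT-1dEB and to 0.11 for the RT minus ST stage difference of Sox2. Calls were lost there for Sox2 in ST-1dEB minus LT-1dEB (−0.20) and LT-1dMeioLC minus PGC-1dMeioLC (−0.18), and for the RT minus ST stage difference of Pou5f1 (−0.61) and Nanog (−0.15). With quantile normalization, RT-1dEB minus ST-1dEB gained a call for Pou5f1 (0.63) and Nanog (0.32), as did Sox2 in RT-1dEB minus LT-1dEB (0.26) and Pou5f1 in RT-1dMeioLC minus LT-1dMeioLC (0.61). Sox2 turned to 0.0902 in RT-1dMeioLC minus ST-1dMeioLC, and calls were lost for Nanog in RT-1dMeioLC minus RT-1dEB (−0.18) and Sox2 in LT-1dMeioLC minus PGC-1dMeioLC (−0.23).

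A pseudocount of 0.1 brought in Pou5f1 for RT-1dMeioLC minus LT-1dMeioLC (0.78) and LT-1dMeioLC minus PGC-1dMeioLC (−0.73). With no filter on low values Sox2 in RT-1dMeioLC minus LT-1dMeioLC (0.34) had an adjusted p of 0.0505. With only the groups compared, values stayed and calls were gained for Pou5f1 in RT-1dEB minus ST-1dEB (0.48) and Sox2 in RT-1dEB minus LT-1dEB (0.13). They were lost for Pou5f1 (1.57) and Sox2 (0.46) in ST-1dMeioLC minus LT-1dMeioLC, Pou5f1 in RT-1dMeioLC minus ST-1dMeioLC (−0.94), Sox2 (0.34) and Nanog (0.80) in RT-1dMeioLC minus LT-1dMeioLC, Nanog in RT-1dMeioLC minus RT-1dEB (−0.34), Sox2 (−0.34) and Nanog (0.40) in LT-1dMeioLC minus PGC-1dMeioLC and Pou5f1 in ST-1dMeioLC minus PGC-1dMeioLC (0.98). With voom, Pou5f1 gained a call in ST-1dEB minus LT-1dEB (−0.39) and RT-1dEB minus ST-1dEB (0.42) and lost it in RT-1dMeioLC minus ST-1dMeioLC (−0.99), and calls were lost for Nanog in RT-1dMeioLC minus RT-1dEB (−0.0148) and Sox2 in LT-1dMeioLC minus PGC-1dMeioLC (−0.31).

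Leaving out 1 library changed calls or signs for 9 results, whose values ran from 0.10 to 0.32 for Nanog in RT-1dEB minus ST-1dEB, 0.41 to 0.85 for Pou5f1 and 0.25 to 0.43 for Sox2 in RT-1dMeioLC minus LT-1dMeioLC, and in the comparisons with PGC-1dMeioLC from −0.79 to −0.38 for Pou5f1, −0.47 to −0.21 for Sox2 and 0.31 to 0.48 for Nanog in LT, −0.00948 to 0.25 for Sox2 in ST, and −0.17 to 0.27 for Pou5f1 and −0.13 to 0.13 for Sox2 in RT. A lone library is then assumed to vary like the other groups. Deviations of same-numbered libraries correlated by −0.03 to 0.04, so replicate numbers were not taken as pairs; with a replicate block Sox2 in RT-1dMeioLC minus LT-1dMeioLC stayed at 0.34 with an adjusted p of 0.0507, the one member call it changed. Depth limits Pou5f1 most in 1dMeioLC, where it rests on 10 to 96 reads.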
